A study of Mus musculus with 2 samples.

Results

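The spots richest in immunoglobulin transcripts in 1 section of a mouse brain metastasis are described here. They are the 83 spots of section 1 (replicate 1) with the highest summed level of *Igkc*, *Igha* and *Ighg2b*, which encode the kappa light chain and the IgA and IgG2b heavy chains. They form the top 5% of the 1663 spots of that section with at least 10000 UMIs. Section 1 had 3406 spots under tissue and the series 7423. A spot is a barcoded field of the Visium array that can hold several cells, a UMI is a molecular tag counted once, and levels are given in CPM, the UMIs of a gene in each 1000000 UMIs of the spot or set of spots. The comparison spots were the 426 other spots of at least 10000 UMIs within 3 steps of an immunoglobulin-rich spot on the hexagonal array.

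The series has 2 sections and 1 condition, labelled genotype HP, +cre and NO treatment. Section 1 is titled HP-F1 and section 2 HP-B6. Each section came from the cerebellum of a C57BL/6J mouse that had been injected with syngeneic mammary tumor organoids. The organoids carry a mutant human HER2 transgene behind an actin promoter and a mutant PIK3CA, both switched on by Cre. The panel reads mouse transcripts, so the human transgene does not mark the tumor cells here, and no section without a tumor was analysed. With 1 section there is no replicate of any comparison between spots, and neighboring spots lie in the same tissue. No p-value is therefore given, every difference is a description, and the 95% intervals cover counting error only. Within a spot, fewer cells of a type and less RNA per cell cannot be told apart.

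Plasma cells are the end stage of B cell differentiation. They secrete antibody, a tetramer of heavy and light chains, and their immunoglobulin transcripts can outnumber those of most other genes. The heavy chain constant gene in use sets the antibody class, starting with *Ighm* and *Ighd* in naive B cells and moving to *Ighg*, *Igha* or *Ighe* after class switching. *Jchain* encodes the joining chain that links secreted IgA and IgM into polymers. In the healthy brain such cells are found mainly in the dural meninges, where IgA-secreting cells line venous sinuses.

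The heavy chain constant genes lie in 1 cluster on chromosome 12, from *Igha* (113256204 to 113260236) through *Ighg2c*, *Ighg2b* (113304314 to 113307933), *Ighg1*, *Ighg3* and *Ighd* to *Ighm* (113418826 to 113422730; RefSeq, GRCm38.p6). *Igkc* lies on chromosome 6 (70726435 to 70726754), the lambda constant genes on chromosome 16 and *Jchain* on chromosome 5 (88519809 to 88527897). The panel also holds 12 probes named for kappa V or heavy chain J segments, the short pieces that are joined at random when a B cell builds its receptor. A B cell clone keeps its own joined segments, and most segments have no probe here.

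The summed level of the genes of the rule was 2485 CPM at the lowest, 3909 at the median and 11589 at the highest in the 83 spots, against 0, 449 and 2473 in the comparison spots. The last spot inside the limit had 2485 CPM and the first outside 2473, so the limit cuts a continuous range. These values chose the spots and are a description. *Igkc* had 3166 CPM in the 83 spots against 473 in the comparison spots, *Igha* 1103 against 149 and *Ighg2b* 164 against 22.6. The immunoglobulin-rich spots held 6.38% of the UMIs of section 1, but 50.2% of its *Igkc*, 53.0% of its *Igha* and 48.3% of its *Ighg2b* UMIs. Of the genes that the rule did not use, they held 50.5% of the *Jchain* and 31.6% of the *Ighm* UMIs. Total UMIs per spot ranged from 10602 to 88578 (median 51410), below the median of 58187 in the comparison spots.

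The 83 spots were not scattered evenly. Spots that touched on the array formed 20 connected groups, of 34, 14, 9, 4, 3, 3, 2 and 2 spots and 12 single spots, so 57 spots (68.7%) lay in the 3 largest groups. The map of section 1 shows them on 1 side of the tissue, from 1 to 15 steps from the tissue edge. The median spot lay 5 steps from the tissue edge and the median comparison spot 8, while the share within 3 steps of the edge was 21.7% (18 of 83) against 19.5%. Group 2 touched the border of the array itself, so its true extent was not measured.

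**Figure D1:**
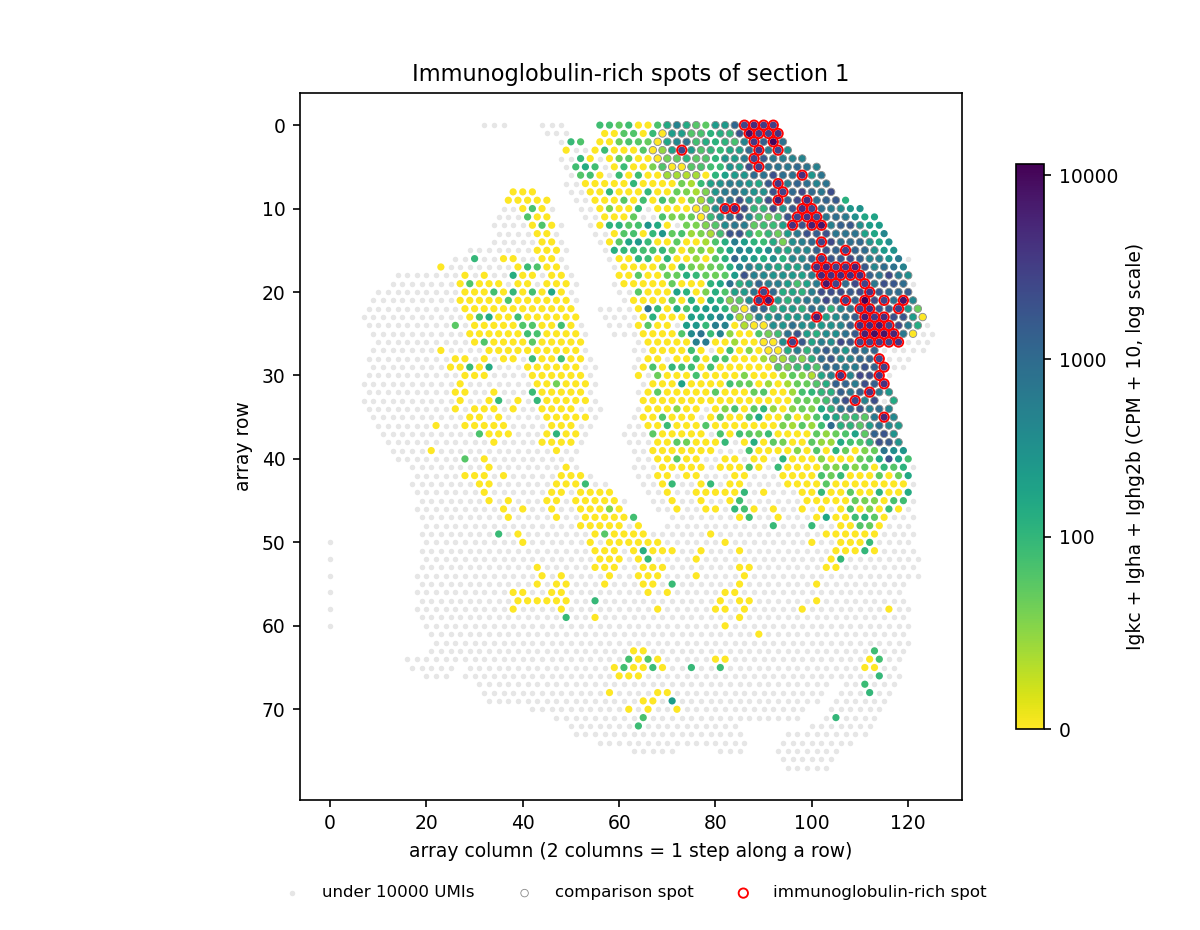
Map of section 1 by array column and row, with the summed CPM of Igkc, Igha and Ighg2b on a log color scale for spots of at least 10000 UMIs and grey for the others. Red rings mark the 83 immunoglobulin-rich spots and grey rings the 426 comparison spots. The red rings lie on 1 side of the section, most of them in 3 connected groups of 34, 14 and 9 spots.

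The label of these spots as plasma cell spots was checked against markers other than the genes of the rule. *Jchain* and a few sparse markers were higher, whereas several regulators and the surface marker of plasma cells were level with the comparison spots or lower. *Jchain* ranged from 0 to 1287 CPM with a median of 288 in the immunoglobulin-rich spots, and from 0 to 404 with a median of 26.2 in the comparison spots. It was detected in 82 of the 83 spots, and in 78 it stood above the pooled level of the spot's own comparison spots. The ratio of pooled CPM was 7.20 (95% interval, 6.64 to 7.82). *Mzb1*, an endoplasmic reticulum chaperone of antibody assembly, had 77 and 148 UMIs, or 18.9 against 6.15 CPM (ratio 3.07, 2.30 to 4.07). *Derl3*, which helps to clear misfolded proteins, had a ratio of 2.85 (1.75 to 4.55), *Eaf2* of 2.88 (1.91 to 4.27) and *Pou2af1*, a B lineage coactivator, of 2.00 (1.65 to 2.42). *Tnfrsf17*, the receptor BCMA, had only 17 and 55 UMIs (1.82, 0.992 to 3.19).

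*Sdc1*, the surface marker CD138, was lower in the immunoglobulin-rich spots, at 142 against 190 CPM (ratio 0.749, 0.686 to 0.816). *Xbp1* and *Prdm1*, transcription factors of the plasma cell program, had ratios of 0.984 (0.896 to 1.08) and 1.06 (0.875 to 1.28). *Irf4* had 29 and 125 UMIs (1.37, 0.881 to 2.06). *Sdc1* and *Xbp1* had UMIs in 425 of the 426 comparison spots and *Prdm1* in 327. The summed list of 20 plasma cell identity genes had a ratio of 1.28 (1.24 to 1.32), and 73 of 83 spots exceeded their own comparison spots. Without *Jchain* the ratio was 1.01 (0.981 to 1.05). With part of the markers level or lower, the spots are called immunoglobulin-rich here.

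A gene was called higher or lower where its pooled CPM differed by at least 1.5-fold and it had at least 300 UMIs over both sets. Of 10117 genes that reached this minimum, the genes of the rule left out, 108 were higher (1.07%) and 319 lower (3.15%) in the immunoglobulin-rich spots, with a median log2 ratio of -0.0075. Immunoglobulin, segment and J chain genes made up 10 of the 108 and none of the 319. Glial transcripts differed between the sets as well. The summed list of astrocyte and oligodendrocyte genes had 443 CPM in the immunoglobulin-rich spots and 1433 in the comparison spots, with 8 of its 9 tested genes lower. The comparison was therefore repeated, after these values had been seen, with the 171 comparison spots whose glial sum did not exceed 551 CPM, the 75th percentile of the immunoglobulin-rich spots. This limit was set on the comparison spots alone, and the 83 spots reached 1839 CPM. The choice of spots thus itself raises the ratios of glial genes against these 171 spots. Then 21 genes were higher (0.273%) and 2 lower (0.026%) of 7683, and 15 of the higher and 0 of the lower genes were called the same way against all comparison spots. This second value, against low-glia spots, is given below for the genes and lists it moved most. Of the plasma cell markers, *Sdc1* had 0.949 (0.859 to 1.05) against low-glia spots, so its lower level did not hold there, *Mzb1* 2.41 (1.71 to 3.39) and *Pou2af1* 1.39 (1.12 to 1.73). The plasma cell identity list without *Jchain* had 1.09 (1.05 to 1.14). The part of the glial difference in each result was not tested.

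Antibody genes that the rule did not use were higher as a group. All 6 tested genes of the immunoglobulin and J chain list passed 1.5-fold (median log2 ratio 1.73), against 1.07% of all tested genes. The summed list was above the spot's own comparison spots in 80 of 83 spots. Gene by gene this held for *Jchain* in 78 spots and *Ighm* in 66. It held for *Ighd* in only 39, *Iglc1* in 37, *Ighg3* in 36 and *Ighg2c* in 34. *Ighm*, the IgM heavy chain, had 798 against 211 CPM (ratio 3.78, 3.61 to 3.95). Per spot it ranged from 57.3 to 6354 CPM (median 446), against 0 to 1536 (median 160) in the comparison spots, so the ranges overlapped widely. *Iglc1*, a lambda light chain, had 185 against 47.4 CPM (3.91, 3.56 to 4.29). It ranged from 0 to 1828 CPM per spot (median 24.9) against 0 to 2405 (median 0), and its ratio was 10.1 in the left part of the spots and 0.512 in the right, so its direction was not shared. *Ighg2c*, the IgG2c heavy chain of C57BL/6 mice, had a ratio of 2.90 (2.42 to 3.47), *Ighd* of 2.00 (1.71 to 2.33) and *Ighg3* of 1.51 (1.23 to 1.84). *Ighg1* had 8 UMIs in the 83 spots and 42 in the comparison spots, with at most 2 in any spot of section 1. How well its probe reads IgG1 was not tested, so these counts do not show that IgG1 was absent. Against low-glia spots the ratio was 5.61 for *Jchain*, 2.41 for *Ighm*, 6.59 for *Iglc1*, 2.20 for *Ighg2c* and 1.38 for *Ighd*, which no longer passed 1.5-fold. Close relatives such as the IgG genes can share probe targets, and how the panel separates them was not tested.

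The antibody class differed strongly from spot to spot. Of 8969 heavy chain UMIs in the immunoglobulin-rich spots, *Igha* took 50.2% (49.1 to 51.2), *Ighm* 36.3% (35.3 to 37.3), *Ighg2b* 7.48% (6.95 to 8.05), *Ighd* 2.48% and *Ighg2c* 2.04%. In the comparison spots *Ighm* took 47.2% and *Igha* 33.2% of 10785. Probes of different genes need not be equally efficient, and the rule favors *Igha* and *Ighg2b* over *Ighm*, so the shares compare spots and not the abundance of antibodies. *Igha* had the most heavy chain UMIs in 42 spots, *Ighm* in 35, *Ighg2b* in 5 and *Ighg2c* in 1. In 21 of the 42 spots *Igha* held at least 80% of them, and in 10 of the 35 *Ighm* did. Across the 83 spots, on the log2(CPM + 10) scale, *Igha* and *Ighm* were inversely related (Pearson r = -0.54, Spearman rho = -0.56), and *Jchain* followed *Igha* weakly (r = 0.30). These correlations describe neighboring spots of 1 section that were chosen on *Igha*, and carry no test.

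**Figure D2:**
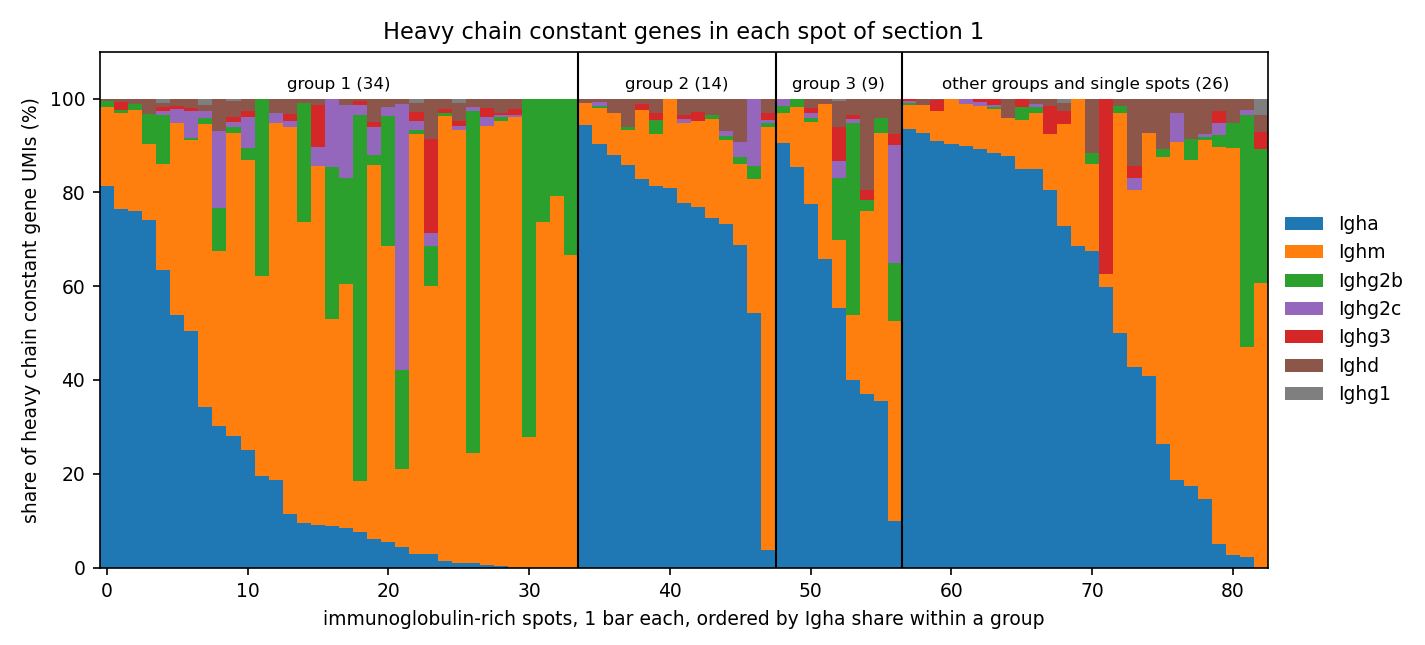
Share of heavy chain constant gene UMIs (percent) taken by each gene in the 83 immunoglobulin-rich spots, 1 bar per spot, set apart by connected group and ordered by Igha share. Igha leads in 42 spots and Ighm in 35, and Ighm and Ighg2b take 57.7% and 13.9% of the pooled heavy chain UMIs of group 1, against 17.7% and 0.605% in group 2.

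Single spots could be dominated by 1 class. The spot with the highest level of all, in group 1, had 177 *Ighg2b* UMIs beside 17 of *Igha* and 25 of *Ighm*, with 261 of *Igkc* and 8 of *Jchain*. The second, in group 2, had 214 *Igha* UMIs, 1 of *Ighg2b* and 18 of *Ighm*, with 253 of *Igkc* and 57 of *Jchain*, the most of the 83 spots. The fourth, again in group 1, had 239 *Ighm* UMIs and 1 of *Igha*. The spot with the most *Igkc* of the 83, 458 UMIs, held only 23 heavy chain constant UMIs of the 7 genes, 16 of them *Ighm*, beside 331 UMIs of the J segment *Ighj1*. *Ighe* is not among the genes of the files, so an IgE heavy chain could not be read.

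Light chain use was uneven too. Lambda constant genes took 5.97% of the light chain UMIs in the immunoglobulin-rich spots (820 of 13734) and 11.03% in the comparison spots (1412 of 12805), while the kappa gene was part of the rule. In group 2 the share was 21.7%, in group 3 it was 8.44% and in group 1 1.23%. Of the 21 spots with at least 20 *Iglc1* UMIs, 11 were immunoglobulin-rich spots and 10 comparison spots. The spot with the most *Iglc1*, 183 UMIs beside 28 of *Igkc*, lay outside the rule at 1538 CPM, 3 steps from the nearest immunoglobulin-rich spot, and held 89 *Igha* UMIs.

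Some segment probes gave sharp local differences, as did some constant genes. In section 1 the top spot held 12.7% of the *Ighg2b* and 8.93% of the *Iglc1* UMIs, and the top 10 spots 40.6% and 46.9%. *Igkv8-27* (chromosome 6, 70171809 to 70172270) had 849 UMIs in section 1, 156 of them (18.4%) in 1 spot of group 3. *Igkv19-93* (chromosome 6, 68736297 to 68736764) had 716, with 41.9% in 10 spots. *Igkv14-100* had no UMI, which allows up to 3 in the section, and the other 7 kappa V probes had 85 to 175 UMIs with at most 3 in any spot. *Ighj1* and *Ighj4*, short heavy chain J segments on chromosome 12, had ratios of 4.14 (3.91 to 4.37) and 3.70 (3.44 to 3.99).

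The V and J segments kept company in a particular way, looked at after the values had been seen. In the 15 spots with at least 10 *Igkv8-27* UMIs, 5 of them immunoglobulin-rich and 10 comparison spots, *Ighj1* took 86.1% (83.6 to 88.3) of the 861 *Ighj1* and *Ighj4* UMIs, and 13 of 15 spots had more *Ighj1*. In the 20 spots with at least 10 *Igkv19-93* UMIs the share was 46.8% (43.2 to 50.4), and 12 of 20 had more *Ighj4*. These 20 spots were mixed, with 82 *Ighj1* and 9 *Ighj4* UMIs in 1 spot and 2 and 59 in another. The 2 sets overlap, as in a spot with 30 *Igkv8-27* and 18 *Igkv19-93* UMIs. In the 478 immunoglobulin-rich and comparison spots with fewer UMIs of both V segments the *Ighj1* share was 61.9% (60.7 to 63.0). *Igha* made up 69.8% of the heavy chain UMIs of the *Igkv8-27* spots and 28.2% of those of the *Igkv19-93* spots, where *Ighg2c* reached 13.5%, against 40.3% and 2.15% in the remainder. The *Igkv8-27* spots were not 1 patch, since the farthest pair lay 25 steps apart, and 1 comparison spot (47 *Igkv8-27*, 59 *Ighj1*, 54 *Igha* UMIs) lay beside an immunoglobulin-rich spot with 39, 58 and 65. The probes do not show which segments were joined in 1 cell, and adjacent spots are not independent.

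**Figure D3:**
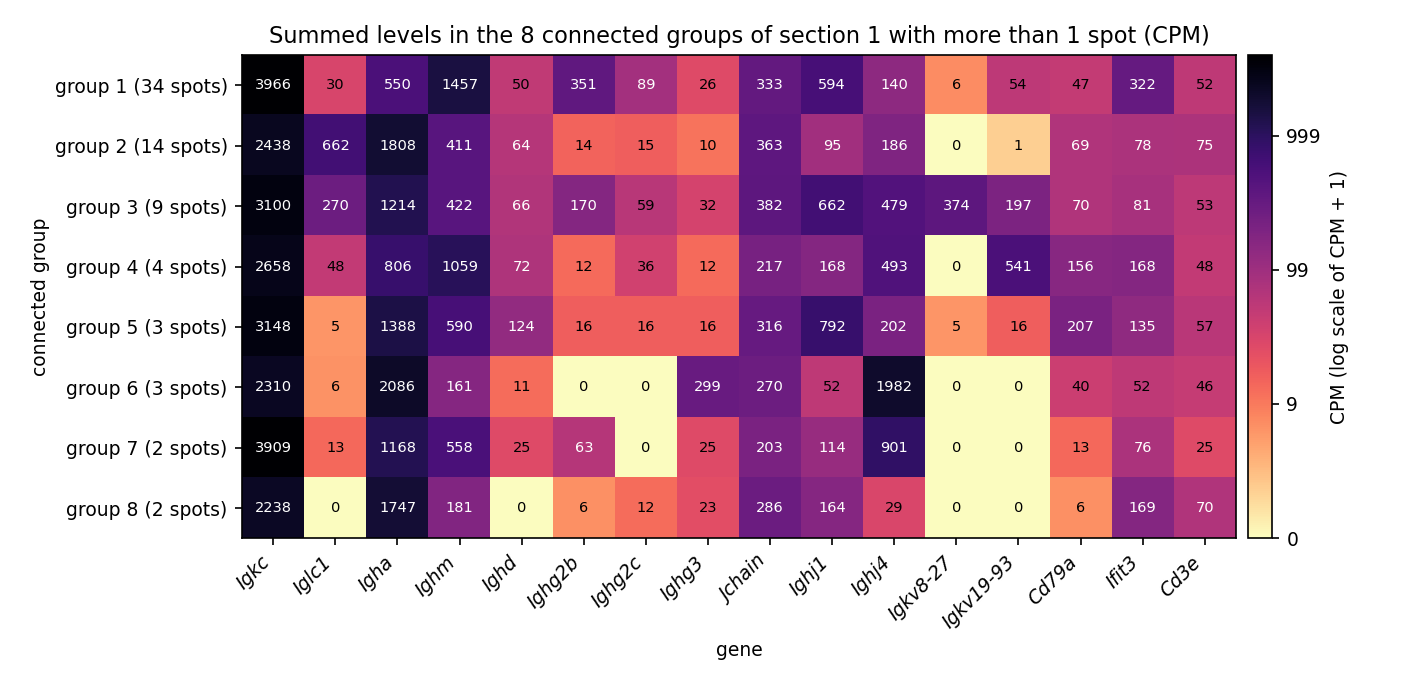
Pooled CPM (log color scale of CPM + 1, value printed in each cell) of 16 genes in the 8 connected groups with more than 1 spot, among them antibody constant genes, segments, J chain, a B cell gene (Cd79a), an interferon-induced gene (Ifit3) and a T cell gene (Cd3e). Jchain ranges only from 203 to 382 CPM, while Ighm, Iglc1, Ighj4 and the V segments differ many-fold between groups.

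The connected groups thus carried different antibody genes. Among the 8 groups of more than 1 spot, group 1 had the most *Ighm* (1457 CPM) and *Ighg2b* (351 CPM), with 550 CPM of *Igha*. The 12 single spots that touched no other went up to 2218 CPM of *Ighm* and 875 CPM of *Ighg2b*. Separate spots within group 1 reached 6354 and 4508 CPM. Group 2 had 1808 CPM of *Igha*, 411 of *Ighm* and 662 of *Iglc1*. Among the same 8 groups, *Igkv8-27* was highest in group 3 (374 CPM) and *Igkv19-93* in group 4 (541 CPM), while 3 of the 12 single spots had 477 to 752 CPM of *Igkv8-27*. Group 6, 14 steps from the tissue edge at the median, had 2086 CPM of *Igha*, 1982 of *Ighj4* and 299 of *Ighg3*, with no *Ighg2b* UMI. Within group 6, 1 spot held 42 of the 52 *Ighg3* UMIs. The 2 spots of section 1 with the most *Ighg3* (47 and 45 UMIs) were comparison spots 1 step from group 6. Their makeup differed from that of group 6, with only 5 and 1 *Igha* UMIs.

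B cell genes were higher in the pooled comparison, but not in most spots. Of 8 tested genes of the B cell list 5 were called higher and 0 lower (median log2 ratio 0.95), against 1.07% and 3.15% of all tested genes. The summed list had 454 against 324 CPM (ratio 1.40, 1.33 to 1.47). *Cd79a*, a signaling chain of the B cell receptor that early plasma cells keep, had 0 to 312 CPM per spot (median 41.7) against 0 to 322 (median 15.2), and pooled levels of 62.0 against 25.8 CPM (2.40, 2.07 to 2.78). *Ms4a1*, which encodes CD20, had 22.1 against 11.6 CPM (1.91, 1.49 to 2.43). *Cd79b* and *Bank1* had ratios of 1.96 and 2.01. The sum exceeded that of the spot's own comparison spots in only 41 of 83 spots. It was 1056 CPM in group 5 and 674 in group 4 but 178 and 164 in groups 7 and 8, and in group 4 the spots around it held more (803 CPM). Against low-glia spots, where it had 363 CPM, the list had a ratio of 1.25. There 1 of 4 tested genes was called, *Cd79a* at 1.74 (1.47 to 2.06). *Cd79a* was tied to *Ighd*, a mark of unswitched B cells (r = 0.50 over 83 spots), and not to *Jchain* (r = 0.02). In the 42 highest spots, the top 2.5%, the B cell ratio was 1.12 while that of plasma cell identity, with *Jchain* in the list, was 1.42.

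T cell genes did not follow the antibody genes. None of 18 tested genes was called in either direction, the median log2 ratio was -0.03, and the summed list had 586 against 590 CPM (ratio 0.993, 0.950 to 1.04). *Cd3e*, a chain of the T cell receptor complex, had medians of 51.1 and 51.0 CPM per spot and pooled levels of 57.1 and 57.6 CPM, *Cd4* 35.1 and 36.6 and *Cd8a* 22.8 and 22.6. Genes of class switching and the germinal center gave no call among 7 tested. Over all tested genes 1.07% were higher and 3.15% lower, so no call in lists this short is close to that share.

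Genes of the secretory machinery were level too. The summed list of folding and secretion in the endoplasmic reticulum had a ratio of 0.996 (0.985 to 1.01). *Hspa5*, the chaperone BiP, had 895 and 899 CPM. None of its 33 tested genes was called, which is close to the 1.07% higher and 3.15% lower over all genes. Of 14 tested genes for plasma cell survival and homing, 1 was higher and 1 lower. *Cxcl13*, which attracts B cells, had 287 against 177 CPM (ratio 1.63, 1.52 to 1.74), but 1.01 (0.938 to 1.08) against low-glia spots. *Lgals3*, galectin 3, was the lower gene at 466 against 840 CPM (0.555, 0.529 to 0.582), and had 1.03 against low-glia spots. The survival factors *Tnfsf13b* (BAFF) and *Tnfsf13* (APRIL) had ratios of 1.04 (0.888 to 1.22) and 0.906 (0.774 to 1.06). *Cxcl12*, a retention signal for plasma cells in bone marrow, had 1.15 (1.08 to 1.22), or 0.944 (0.883 to 1.01) against low-glia spots, and its receptor *Cxcr4* 1.05 (0.956 to 1.14). Of 15 tested receptors of plasma and B cells 0 were higher and 2 lower, and *Pigr*, the transporter of polymeric IgA, had 10 UMIs in all 83 spots.

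**Figure D4:**
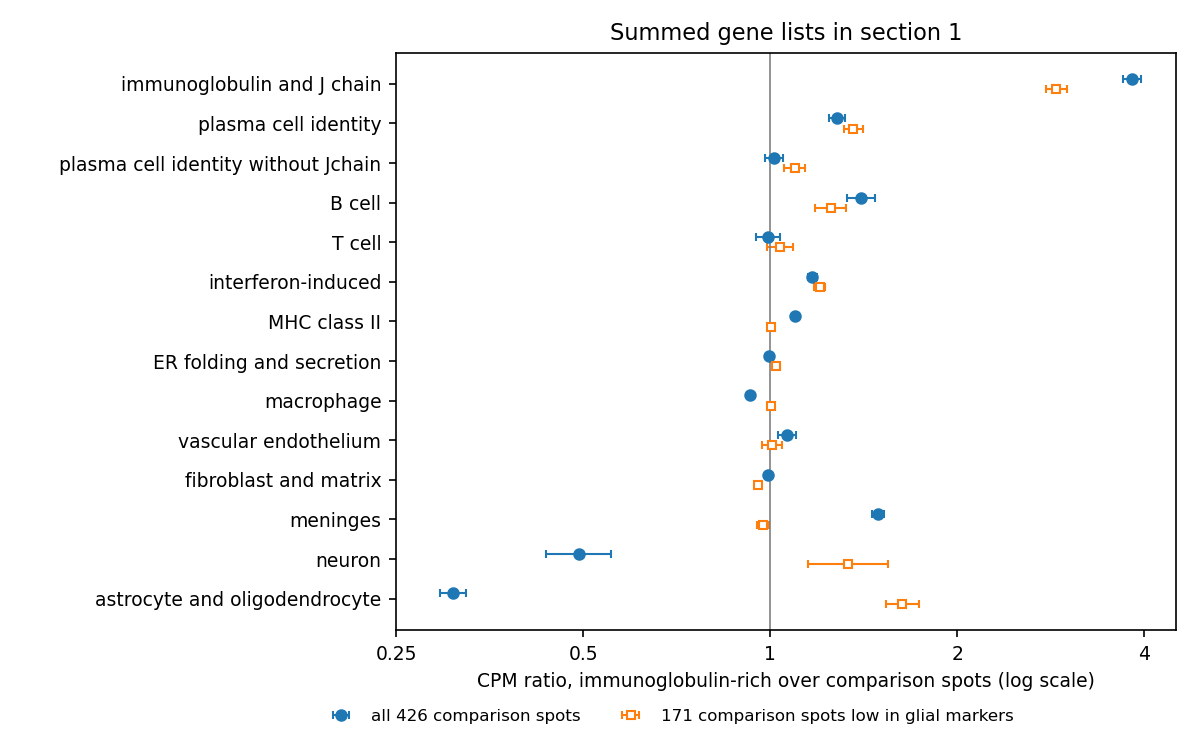
Ratio of pooled CPM (log scale) in the 83 immunoglobulin-rich spots over comparison spots for 14 gene lists, with 95% counting intervals, against all 426 comparison spots (filled circles) and against the 171 low in glial markers (open squares). The immunoglobulin and J chain list lies far right of 1 in both, T cell and secretion lists lie near 1, and the meninges, neuron and glial lists cross 1 by the most. For the glial list the crossing follows from the glial limit, which was set on the comparison spots alone. The neuron list had 0 tested genes against those 171 spots.

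Interferon-induced genes were higher in the pooled comparison, with most of the difference in group 1. Of 16 tested genes 6 were called higher and 0 lower, against 1.07% and 3.15% of all tested genes. *Rsad2* had 50.3 against 23.7 CPM (ratio 2.12, 1.80 to 2.49) and *Ifit3* 740 and 2286 UMIs (1.91, 1.76 to 2.08). *Ifit1* had a ratio of 1.84 and *Irf7*, a regulator of the response, of 1.65. *Cxcl9* and *Cxcl10* were not called. The summed list had a ratio of 1.17 (1.15 to 1.19) (4019 against 3441 CPM), and 4 of 16 genes were called against low-glia spots. It had 5309 CPM in group 1 and 3567 in the comparison spots around it, 4639 and 3257 in group 8, and 3155 and 3255 in group 2. Without group 1 the ratio was 0.961 (3321 against 3454 CPM), so the direction rests on that group.

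Several stromal and meningeal genes were higher against all comparison spots and not against low-glia spots. *Cyp2f2* (ratio 2.44), *Ackr4*, an atypical chemokine receptor (2.42), *Abi3bp* (362 against 172 CPM), *Cilp2* (2.09) and *P2ry1* (2.09) were among the 15 named genes with the highest ratios, and so was *Ptgds*, a meningeal and glial enzyme (2.30). Against low-glia spots *Abi3bp* had 1.03, *Cilp2* 0.967, *P2ry1* 0.999, *Cyp2f2* 1.13 and *Ackr4* 1.28. *Ptgds* had 4.52 there but UMIs in only 39 of the 83 spots, and its highest level of all was in a comparison spot. The meninges list went from 1.49 to 0.974. Of 22 tested fibroblast and matrix genes 3 were higher and 1 lower, against 1.07% and 3.15% of all tested genes. The summed list had a ratio of 0.991, with *Col1a1* at 20918 and 22221 CPM. *Dcn*, a matrix proteoglycan, had 1.54 against all and 0.954 against low-glia spots. *Mrc1*, a scavenger receptor of tissue macrophages, had 1.69 and 1.06.

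The remaining lists gave few higher calls in the immunoglobulin-rich spots. Several, such as the pericyte, macrophage and vascular lists, had a larger share of lower calls than all tested genes (1.07% higher, 3.15% lower). MHC class II genes, with 0 of 7 called, had a summed ratio of 1.10, and vascular endothelium 1.06 with 1 higher and 3 lower of 15. Macrophage genes had 0.928 with 1 higher and 3 lower of 15, microglia 0.970, monocytes 0.821 and dendritic cells 0.957 with 1 lower of 6. NK cell genes had 1.12, neutrophil genes 1.03 and mast cell and eosinophil genes 0.813 on 33.1 against 40.7 CPM. Pericyte and smooth muscle genes had 0.741 with 4 of 6 lower, and lymphatic endothelium 0.623. Tumor epithelium had 1.23, choroid plexus 1.02, cell cycle 0.970, the integrated stress response 0.908, Fc receptors and antibody transport 0.988, and erythrocyte genes 1.33 on 7.35 against 5.53 CPM. Against low-glia spots most of these came close to 1. The pericyte list had 1.10 (0.996 to 1.21) with 0 of 1 tested genes lower, the lymphatic list 1.02 (0.795 to 1.30), the monocyte list 0.968, the mast cell and eosinophil list 1.10 (0.886 to 1.36), the vascular list 1.01, the stress response list 1.01 and the dendritic cell list 0.996. NK cell, tumor epithelium, choroid plexus and Fc receptor genes had 1.19, 1.13, 0.914 and 1.04 there.

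The lowest ratios belonged to neural genes, among them astrocyte genes, and to some macrophage genes. *Gfap* and *Aqp4*, astrocyte genes, had 214 against 939 CPM (ratio 0.228, 0.213 to 0.244) and 13.5 against 70.6 (0.191). *Nfasc*, *Hepacam* and *Serpina3n* had 0.182, 0.184 and 0.238. *Arg1*, an enzyme of arginine use, had 32 UMIs against 978 (0.193, 0.131 to 0.274), *Gpnmb*, a gene of lipid-laden macrophages, 50.7 against 249 CPM (0.204, 0.177 to 0.234) and *Mmp12* 0.237. Against low-glia spots *Arg1* had 0.819 (0.527 to 1.25), while 5 of these genes changed side, with *Gfap* at 2.38, *Aqp4* at 2.92, *Nfasc* at 1.85, *Serpina3n* at 1.28 (0.997 to 1.64) and *Gpnmb* at 2.18. *Hepacam* had 0.981 (0.451 to 2.01) and *Mmp12* 0.664 (0.345 to 1.21). A rise of *Gfap* and other glial genes against low-glia spots follows from the limit, which was set on the comparison spots alone. It is no result about the immunoglobulin-rich spots.

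The levels were then followed with distance from the 83 spots. *Igkc* and *Igha* are genes of the rule, which fixes that they are lower outside the spots. *Igkc* had 829 CPM at 1 step, 311 at 2 steps, 209 at 3 steps, 35.1 at 6 to 8 steps and 5.18 beyond 20 steps. *Jchain* had 321 CPM in the spots, 70.2 at 1 step and 3.80 beyond 20 steps. *Cd79a* had 62.0 CPM in the spots and 37.1 at 1 step. *Cd3e* stayed at 57.1, 57.2, 58.6 and 56.9 CPM from 0 to 3 steps, and *Lum*, a matrix gene, went from 2356 to 1849. *Dpt*, another matrix gene, declined from 716 CPM in the spots to 621, 483 and 376 at 1, 2 and 3 steps. Against low-glia spots *Dpt* had a ratio of 0.916 (0.877 to 0.957), so it was not higher in the 83 spots there. *Ighm* had 30.5 CPM at 6 to 8 steps but 52.1 beyond 20 steps, where it made 79.7% of 379 heavy chain UMIs. With every spot thinned to 10000 UMIs, *Jchain* was seen in 88.0% of the 83 spots and in 3.19% of the 407 spots beyond 20 steps, taken as the background share.

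**Figure D5:**
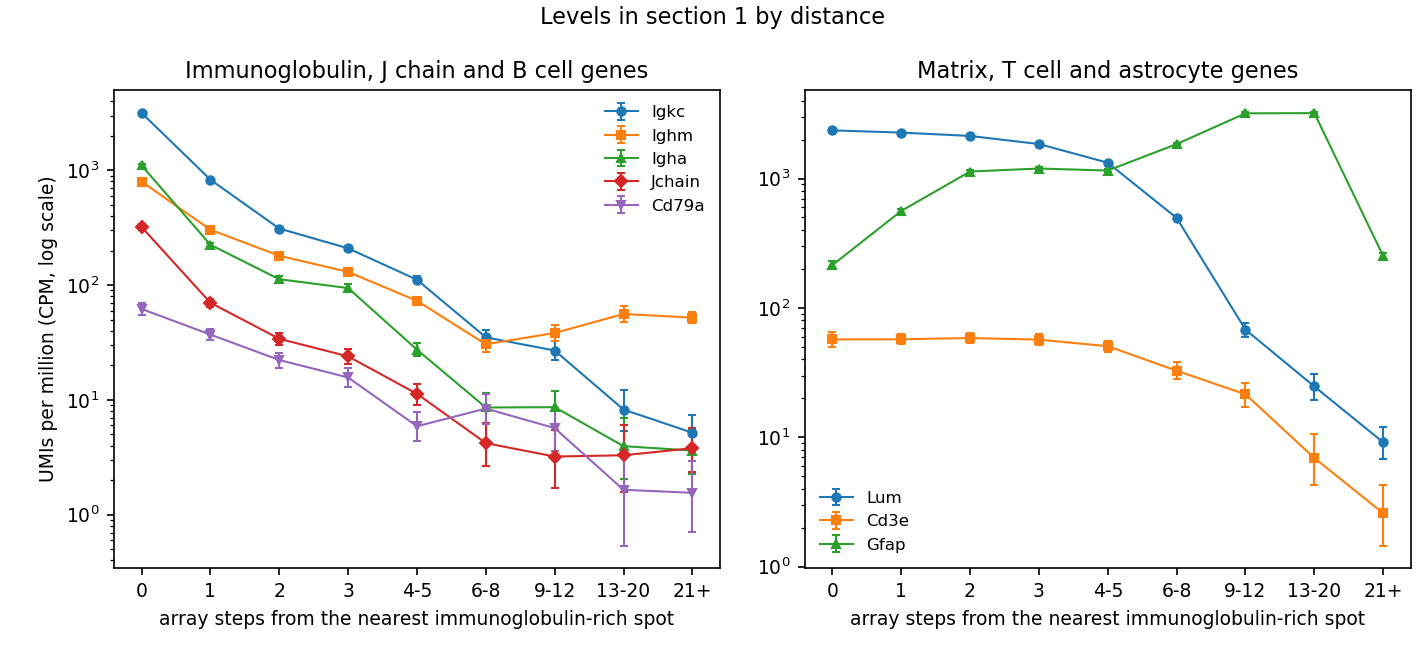
CPM (log axis) in section 1 by array steps from the nearest immunoglobulin-rich spot, pooled over all spots of at least 10000 UMIs at that distance, with 95% Poisson intervals. Igkc and Igha, which the rule used, and Jchain drop steeply within 3 steps, Cd3e stays between 56.9 and 58.6 CPM over the same steps, Gfap is lowest in the immunoglobulin-rich spots, and Ighm stays between 30.5 and 56.0 CPM from 6 steps on.

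Over all 1663 spots the genes whose log2(CPM + 10) was most like that of the rule's sum were *Dpt* (r = 0.78), *Cxcl13* (0.77), *Ogn* (0.76), *Ecrg4* (0.76), *Jchain* and *Clec4a1* (0.75), *Crabp1* (0.74), and *Dcn*, *Lum* and *Igfbp5* (0.73). *Dpt*, *Ogn*, *Dcn* and *Lum* encode matrix proteins. The total UMIs of a spot, which differ between tumor and brain, also followed the sum (r = 0.59). Over the 509 immunoglobulin-rich and comparison spots alone the order was *Jchain* (0.78), *Ighm* (0.68), *Ighj1* (0.63), *Mrc1* and *Igfbp5* (0.59), and the relation to total UMIs was -0.22.

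Section 2 held few such spots. *Igkc* had 25730 UMIs in section 1 and 1801 in section 2, *Ighm* 10298 and 914, and *Jchain* 2590 and 331. The same rule picked 122 of 2443 spots in section 2, from 80.5 CPM upward (median 178). At such levels 1 UMI of a rule gene could be enough, as in a spot with 1 *Igkc* UMI of 10690. There 252 genes were higher (2.39%) and 351 lower (3.33%) than in the comparison spots, and the plasma cell identity list had a ratio of 1.03. Only 10 spots (0.409%) reached the lowest value of the section 1 spots, and they held 58.8% of the *Igha* UMIs of section 2 and 1 *Ighm* UMI. In 9 of them *Igha* led with at least 94.7% of heavy chain UMIs, and in the other *Ighg2c* had 45 UMIs and *Igha* none. Of 1256 heavy chain UMIs in the 122 spots *Igha* took 90.5% and *Ighm* 1.67%. *Igkv8-27* and *Igkv19-93* had 85 and 56 UMIs in section 2, with at most 2 in a spot. With 1 mouse for each section, the difference between sections cannot be told apart from a difference between mice, organoids or cutting planes.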

How the data were processed

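Formalin-fixed cerebellar sections of 2 mice were profiled by the authors with the Visium CytAssist probe assay. The deposited files hold unnormalized UMI counts for every gene in each spot under tissue. The submitters' processing notes name Space Ranger 2.1.1 and mm10. Probe positions were not used, and gene positions come from RefSeq on GRCm38.p6. The counts hold 19465 genes, with 63986887 UMIs in section 1 and 71878333 in section 2. The sections share 3096 spot barcodes, which name array positions and not cells.

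Counts were pooled over spots and divided by their total (CPM). Ratios carry exact conditional binomial intervals, levels exact Poisson intervals and shares Clopper-Pearson intervals, all at the 95% level. With 1 section no test was run. The spots, the 30 gene lists (412 genes, 396 in the files) and the comparison were chosen with earlier results of these data known. Genes named are those of the rule and the lists, the 15 with the highest and the 15 with the lowest ratio that lay on the same side in the left and right parts of the spots, and the 10 most correlated. The V and J segments, *Igkv14-100* included, were named after their values were seen. Alternatives were other limits for spots, UMIs, genes and distance, equal weights, median scaling, thinning to 10000 UMIs and leaving out the largest group. Some genes are not reported here. Scripts were tested on simulated data. Python 3.11.15, numpy 2.4.6, scipy 1.17.1, pandas 2.3.3 and matplotlib 3.10.9 were used.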

Additional observations from a re-analysis of the deposited data

Results flagged for a closer look

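For 7 gene lists the immunoglobulin-rich spots of section 1 and the spots picked by the same rule in section 2 lay on opposite sides of their comparison spots, with counting intervals clear of 1 in both sections. Lists with an interval that reached 1 in either section were not counted. The difference between sections was not tested, since each is 1 mouse, and the section 2 spots hold 1570 light chain UMIs against 13734. Only 10 of the 122 section 2 spots reached the limit of section 1, and 1 UMI could pick a spot. Most of the section 2 spots are thus not rich in immunoglobulin by the limit of section 1. The ratio of the macrophage list was 0.928 in section 1 and 1.43 in section 2, and that of the monocyte list 0.821 and 1.45. The fibroblast and matrix list had 0.991 and 1.37, the pericyte and smooth muscle list 0.741 and 1.34, and the mast cell and eosinophil list 0.813 and 1.27. The receptors of plasma and B cells had 0.932 and 1.10. The tumor epithelium list went the other way, with 1.23 and 0.864. In section 1 none of its 4 tested genes was called. The spots picked by the rule had 197 CPM of this list in section 1 and 4818 in section 2. For the fibroblast and matrix list they had 70410 and 3845 CPM. The ratios of the 2 sections thus rest on spots of unlike makeup. Without the largest connected group the section 1 fibroblast ratio was 1.02 (1.016 to 1.026), on the same side as section 2. The mast cell interval then reached 1 (0.669 to 1.04), and the other flagged lists kept their side. Against low-glia spots the section 1 ratios were 0.955 (0.951 to 0.960) for the fibroblast and 1.13 (1.03 to 1.23) for the tumor epithelium list. For the other 5 the interval in section 1 then reached 1. It ran from 0.995 to 1.01 for the macrophage, 0.883 to 1.06 for the monocyte and 0.996 to 1.21 for the pericyte list. For the mast cell list it ran from 0.886 to 1.36 and for the receptor list from 0.975 to 1.03. Section 2 was not compared with low-glia spots, so the contrast between sections was not tested there.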

How the results depend on the processing

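The plasma cell identity and B cell ratios stayed above 1 under every alternative tried. The plasma cell identity ratios given here include *Jchain*. Without *Jchain* the main ratio was 1.01 (0.981 to 1.05), so they do not show that the other plasma cell genes were higher. Outside the plasma cell identity and B cell lists, the interferon list was below 1 without the largest connected group (0.961). The fibroblast and matrix list was above 1 without that group (1.02). The glial and neuron lists were above 1 against low-glia spots (1.63 and 1.33). The glial value there follows from the limit, which was set on the comparison spots alone. The same choice of comparison spots took the neuron list from 0.492 to 1.33, with 0 tested genes there. The number of genes past 1.5-fold depended on the comparison spots used and on how many genes reached the minimum. In the main comparison 10117 genes did. Higher and lower genes numbered 18 and 37 of 7802 with comparison spots within 1 step, and 213 and 651 of 10903 within 6 steps. They numbered 32 and 90 of 3919 with each spot thinned to 10000 UMIs. With a gene minimum of 100 UMIs they were 292 and 665 of 12503, and with a minimum of 1000 they were 45 and 104 of 6132. Against comparison spots low in glial markers, an alternative chosen after seeing the data, they were 21 and 2 of 7683. Without the largest connected group the higher genes were 63 of 9916. Because the numbers tested differ, the counts alone cannot be set side by side. The plasma cell identity ratio was 1.42 for the top 2.5%, 1.17 for the top 10%, 1.40 and 1.21 for spots of at least 20000 and 5000 UMIs, 1.23 within 6 steps, 1.19 after thinning and 1.36 against low-glia spots. The B cell ratio was, in the same order for the first 4, 1.12, 1.52, 1.30 and 1.53, then 1.23 within 1 step, 1.55 within 6 steps, 1.53 at 2 to 3 steps and 1.25 against low-glia spots. The T cell ratio was 0.923 for the top 2.5%, 1.06 within 6 steps, 1.05 without the largest group and 1.04 against low-glia spots, so its side of 1 was not fixed. Most genes with under 300 UMIs, among them *Mzb1*, *Irf4* and *Tnfrsf17*, were too sparse to compare between single spots. Spots were set against their own comparison spots, but with 1 section no pairing across replicates was possible.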
